A study of Homo sapiens with 10 samples.

Results

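The nonclustered delta protocadherins were examined as 8 single genes that lie outside the protocadherin clusters of chromosome 5. PCDH1, PCDH7, PCDH8, PCDH9, PCDH10, PCDH17, PCDH18 and PCDH19 were taken from a fixed list of names, and all 8 were found among the 19665 genes present in both deposited count tables. RNA-seq of poly(A) libraries compared WT cells with cells lacking ZNF274, a KRAB zinc finger protein that represses genes through heterochromatin, in 2 cell types. HEK293T, a transformed human embryonic kidney line, gave 3 WT and 3 ZNF274 KO libraries, and neural progenitor cells (NPCs) differentiated from the human embryonic stem cell line H1 gave 2 WT and 2 ZNF274 KO libraries. The deletion was made with Cas9 and guides on either side of ZNF274, in HEK293T cells and in the stem cells before differentiation, and edited cells were grown from single cells or colonies. The series describes independent clones, but the labels do not tie a library to a clone, so p-values measure only the spread between these libraries.

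The libraries held 18621266 to 32285876 counts. ZNF274 had 423 to 496 counts in the 5 WT libraries and 0 counts in the 5 KO libraries. Levels are given as CPM, counts scaled to a common library size, after TMM scaling over all 10 libraries, and 3 counts, taken as the detection floor, corresponded to 0.0917 to 0.154 CPM. Markers of the labelled cell types were read from fixed lists. The summed level of 11 neural progenitor markers was 2996 to 4011 CPM in WT NPCs, 3256 to 3285 CPM in KO NPCs and 96.2 to 107.5 CPM in WT HEK293T cells. Most of the NPC sum was NES, which was not called between genotypes. After seeing this, the other 10 were summed alone and gave 719.9 to 1009 CPM in WT NPCs and 74.7 to 107.8 CPM in KO NPCs, against 81.9 to 85.2 CPM in WT HEK293T cells. Among embryonic kidney markers, PAX8 was at 0 in all 3 WT HEK293T libraries.

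Protocadherins are calcium-dependent adhesion proteins of the cadherin superfamily. Clustered protocadherins are encoded in tandem arrays with many promoters, whereas each delta protocadherin is a single gene outside these arrays. The delta-1 members PCDH1, PCDH7 and PCDH9 carry more extracellular cadherin repeats than the delta-2 members PCDH8, PCDH10, PCDH17, PCDH18 and PCDH19. Several delta-1 members bind protein phosphatase 1 through their cytoplasmic tail, and delta-2 members such as PCDH10, PCDH17 and PCDH19 bind the WAVE actin-regulating complex. In the nervous system, delta protocadherins act in cell sorting, axon growth and synapse formation, and PCDH19 is the gene of an X-linked epilepsy.

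In hg19 the members lie on chromosomes 4, 5, 13 and X. PCDH1 (ENSG00000156453, chr5:141232655-141258811) is the member nearest to a cluster, with 340113 bp between it and the gamma cluster. PCDH7 (ENSG00000169851, chr4:30721991-31148427), PCDH10 (ENSG00000138650, chr4:134070449-134129761) and PCDH18 (ENSG00000189184, chr4:138440072-138453648) share chromosome 4. PCDH8 (ENSG00000136099, chr13:53417024-53422776), PCDH17 (ENSG00000118946, chr13:58205878-58303445) and PCDH9 (ENSG00000184226, chr13:66876966-67804577) share chromosome 13, and PCDH19 (ENSG00000165194, chrX:99546642-99665271) is on chromosome X. The genes span from 5753 bp for PCDH8 to 927612 bp for PCDH9, and their MANE transcripts have 3 to 6 exons. No other gene of the tables overlapped a member.

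The promoter windows of the 3 members called in KO NPCs below, and of PCDH8, whose window alone among the members held a TATA box, are shown because the members differ in what stands at their start. Each window holds 250 bases before and 50 bases after a gene start in RefSeq (GRCh38.p14), and a window was found for 7 of the 8 members, PCDH10 being the member without one. All 4 are on the minus strand and are written 5′ to 3′ along the gene. Capitals mark the letters TATAAA of a TATA box, CCAAT of a box known by its letters, GGGCGG of a GC box and CAGGTG of an E-box, or their reverse complements. The windows are chr5:141869578-141869877 for PCDH1, chr13:67230287-67230586 for PCDH9, chrX:100410224-100410523 for PCDH19 and chr13:52848591-52848890 for PCDH8. A gene may have other starts, and counts per gene do not show which start was used.
PCDH1: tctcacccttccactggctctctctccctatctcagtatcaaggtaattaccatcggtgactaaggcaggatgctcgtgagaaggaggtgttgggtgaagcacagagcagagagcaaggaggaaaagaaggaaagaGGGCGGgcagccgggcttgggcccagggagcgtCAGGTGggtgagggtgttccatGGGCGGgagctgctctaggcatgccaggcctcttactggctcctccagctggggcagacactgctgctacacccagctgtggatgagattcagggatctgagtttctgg
PCDH9: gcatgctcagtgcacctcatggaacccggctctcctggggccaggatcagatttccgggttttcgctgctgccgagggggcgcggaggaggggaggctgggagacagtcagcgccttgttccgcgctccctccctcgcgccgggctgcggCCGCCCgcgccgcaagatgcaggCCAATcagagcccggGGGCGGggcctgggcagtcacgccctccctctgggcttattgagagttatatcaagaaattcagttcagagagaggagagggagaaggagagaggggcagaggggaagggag
PCDH19: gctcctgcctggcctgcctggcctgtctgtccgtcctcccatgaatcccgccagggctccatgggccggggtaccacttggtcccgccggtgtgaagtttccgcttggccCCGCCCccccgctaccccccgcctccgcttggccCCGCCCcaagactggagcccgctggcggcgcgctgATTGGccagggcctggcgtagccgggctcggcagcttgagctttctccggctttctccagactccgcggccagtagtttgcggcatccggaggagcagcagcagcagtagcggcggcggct
PCDH8: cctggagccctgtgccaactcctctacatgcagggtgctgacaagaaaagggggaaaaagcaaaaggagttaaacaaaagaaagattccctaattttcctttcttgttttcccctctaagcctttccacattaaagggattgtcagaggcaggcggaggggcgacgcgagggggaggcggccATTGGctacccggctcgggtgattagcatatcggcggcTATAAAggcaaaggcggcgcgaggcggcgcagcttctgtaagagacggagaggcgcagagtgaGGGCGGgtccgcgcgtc

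The GC box stood in 4 of the 7 member windows, those of PCDH1, PCDH8, PCDH9 and PCDH19, against 45.0% of 35116 promoter windows of the same length. It stood in 2 of 52 clustered protocadherin windows. CCAAT stood in 6 of 7 member windows, all but that of PCDH1, against 34.6% of all windows and 32.7% of clustered windows. TATAAA stood in the PCDH8 window and in 11.5% of all windows, and CAGGTG in the PCDH1 window and in 20.6%. CGCT, the core of an element shared by clustered protocadherin promoters, is short enough to stand in 70.0% of all windows, in 6 of 7 member windows and in 51 of 52 clustered windows. All motifs were searched on both strands, and no motif contains the letters of another. The median GC content was 58% in the member windows, 58.7% in all windows and 40.7% in clustered windows, and the median number of CpG was 16, 14 and 7.5. Single member windows ran from 52.7% to 71% GC and from 6 CpG for PCDH1 to 26 for PCDH19.

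The levels of the members in WT cells show which delta protocadherins each cell type used before any deletion. WT NPCs held more PCDH1, PCDH8, PCDH18 and PCDH19 and less PCDH9 and PCDH10 than WT HEK293T cells, while PCDH7 and PCDH17 did not pass the test. A gene was called at a Benjamini-Hochberg adjusted p below 0.05 over all genes tested and a fold change above 2, in edgeR's quasi-likelihood test. By that rule 6 of 8 members were called, 4 higher and 2 lower in NPCs, where 40.7% of all genes tested were called, 25.2% higher and 15.5% lower. WT ranges of the cell types did not overlap for 5 of 8 members, where those of 72.5% of genes did not. The labels name no batch, and the 2 cell types come in separate tables, so any technical difference between the tables cannot be told apart from cell type.

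**Figure D1:**
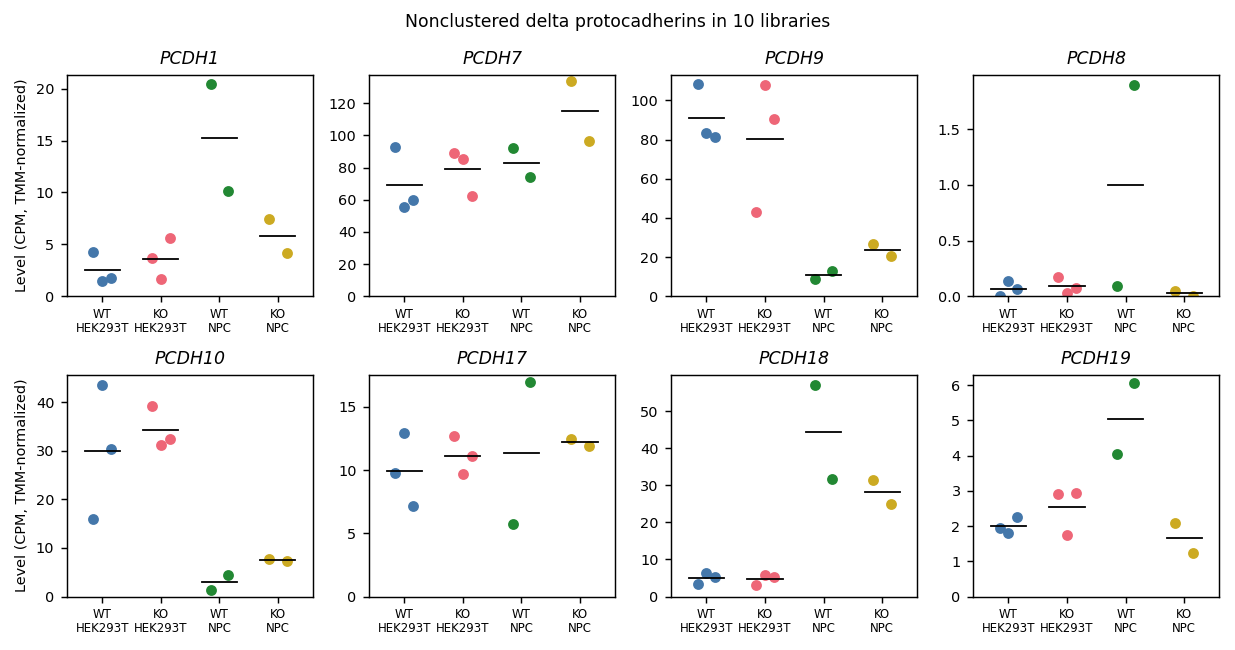
Level of each delta protocadherin in TMM-normalized CPM (vertical axis, linear from 0, scaled per gene) in the 10 libraries, by group. Each point is 1 library and each line the mean of its group. PCDH9 and PCDH10 stand higher in both HEK293T groups, PCDH18 stands higher in both NPC groups, and the KO NPC points of PCDH1 and PCDH19 lie below both WT NPC points.

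Among delta-1 members, PCDH1, a protocadherin also known from airway epithelium, stood at 4.25, 1.48 and 1.76 CPM in the WT HEK293T libraries S15, S16 and S17. In the WT NPC libraries S3 and S5 it stood at 20.4 and 10.2 CPM. The groups did not overlap, and PCDH1 was 6.11-fold higher in NPCs (95% interval 2.69 to 13.9, adjusted p = 0.00129 in edgeR's quasi-likelihood test). The log2 fold change of 2.61 was 2.02 without S3 and 3.23 without S15, called in each case. PCDH9 went the other way, with 108, 83.4 and 81.2 CPM in HEK293T cells and 8.56 and 13.0 CPM in NPCs, 8.43-fold lower (log2 fold change -3.07, SE 0.363). Both NPC libraries lay far below all 3 HEK293T libraries. PCDH7, which binds the phosphatase inhibitor SET, stood at 92.6, 55.4 and 60.0 CPM in HEK293T cells and at 92.3 and 74.0 CPM in NPCs. These ranges overlapped, and the 95% interval of the PCDH7 difference ran from -0.26 to 0.78 on the log2 scale.

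Among delta-2 members, PCDH18, which binds the reelin adaptor DAB1, stood at 3.32, 6.24 and 5.14 CPM in WT HEK293T cells and at 57.1 and 31.6 CPM in WT NPCs. It was 9.05-fold higher in NPCs (95% interval 5.48 to 14.95), with no overlap. PCDH10, which takes part in axon growth, stood at 15.9, 43.5 and 30.4 CPM in HEK293T cells and at 1.38 and 4.41 CPM in NPCs, 10.4-fold lower. Again the groups did not overlap, and the log2 fold change of -3.38 was -2.76 without S3 and -4.43 without S5. PCDH19 stood at 1.96, 1.79 and 2.26 CPM in HEK293T cells and 4.04 and 6.05 CPM in NPCs, 2.51-fold higher (95% interval 1.46 to 4.32). The PCDH19 call rested on library S5, without which the log2 fold change was 1.01 and the adjusted p 0.0793 in edgeR's quasi-likelihood test.

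PCDH17, a presynaptic adhesion protein, stood at 9.79, 12.9 and 7.13 CPM in WT HEK293T cells and at 5.76 and 16.98 CPM in WT NPCs. The 2 NPC libraries enclosed all HEK293T values, and without S5 the sign of the difference turned (log2 fold change -0.79 against 0.19). PCDH8, which is induced by neuronal activity, was near the detection floor with 0, 4 and 2 counts in WT HEK293T cells and 2 and 37 counts in WT NPCs. Its call (log2 fold change 3.77, SE 1.16) rested on S5 alone: without that library the log2 fold change was 0.46, the groups overlapped with it included, and limma-voom did not call it.

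**Figure D2:**
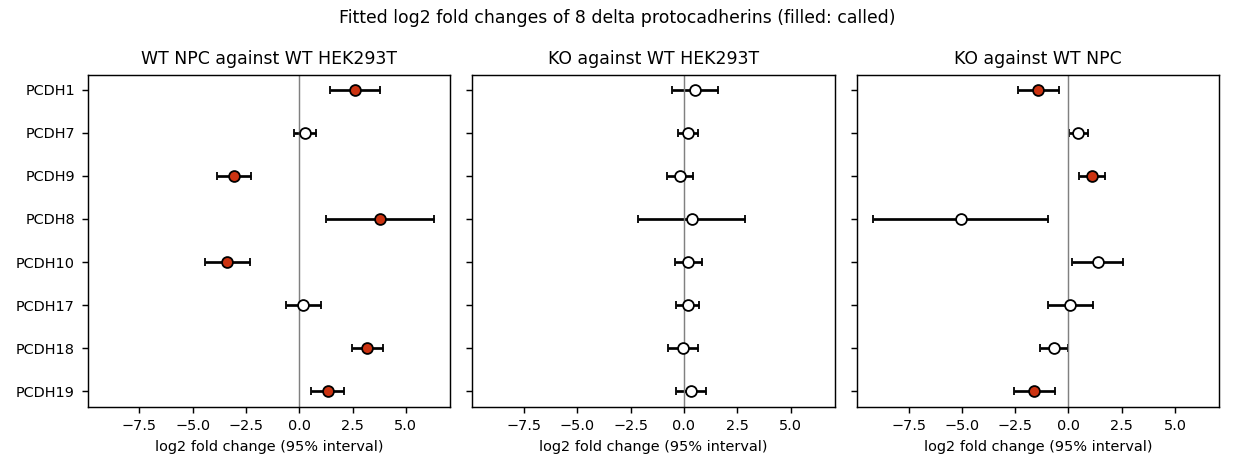
Fitted log2 fold change of each delta protocadherin (points) with its 95% interval (bars) in 3 comparisons on a shared axis, with filled points for called genes. Called genes number 6 of 8 between the WT cell types, 0 of 8 in KO HEK293T cells and 3 of 8 in KO NPCs.

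To compare the members with each other, CPM was divided by the exon length of each gene. In WT HEK293T cells PCDH7 led with 5.37 ± 1.57 CPM per kilobase (SD, n = 3), above PCDH10 with 2.94 ± 1.36 and PCDH9 with 2.94 ± 0.485, which overlapped each other. PCDH17 followed at 1.18 ± 0.344 and overlapped PCDH18 at 0.733 ± 0.221, which overlapped PCDH1 at 0.421 ± 0.257. PCDH19 at 0.206 ± 0.0245 and PCDH8 at 0.0133 ± 0.0134 came last. In WT NPCs the order was another. PCDH18 at 6.64 ± 2.69 (SD, n = 2) and PCDH7 at 6.44 ± 1.003 overlapped at the top, and PCDH1 at 2.58 ± 1.22 came next and overlapped PCDH17 at 1.35 ± 0.945. PCDH19, PCDH9, PCDH10 and PCDH8 followed, each overlapping its neighbour, with means from 0.518 down to 0.193 per kilobase.

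The summed level of the 8 members per kilobase was 12.4 to 15.7 in the 6 HEK293T libraries and 14.9 to 20.7 in the 4 NPC libraries, and with the MANE transcript length described below it was 24.8 to 33.4 and 21.5 to 29.0, so which cell type stood higher turned with the length. PCDH9 and PCDH10 together with PCDH7 made most of the sum in WT HEK293T cells, at 21.2%, 21.6% and 38.7%. In WT NPCs PCDH18 made 35.4%, PCDH7 35.2% and PCDH1 13.7%, while PCDH9 made 1.98% and PCDH10 1.68%. In KO NPCs PCDH7 made 51.7%, PCDH18 24.5% and PCDH1 5.53%. These shares depend on the length used. With the MANE transcript, a choice made after seeing the data, the length of PCDH9 was 6227 bases in place of 30944, and it then led in WT HEK293T cells with 14.6 ± 2.41 CPM per kilobase and 50.6% of the sum, and PCDH7 led in WT NPCs with 39.0%.

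**Figure D3:**
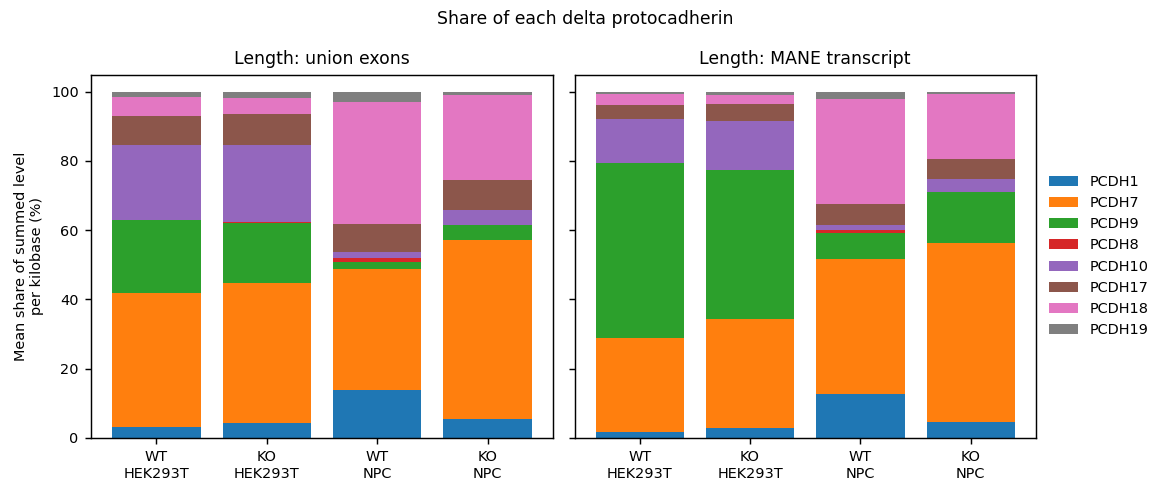
Mean share of each delta protocadherin in the summed level per kilobase (percent, stacked bars that add to 100) in the 4 groups, with the length of all annotated exons (left) and of the MANE transcript (right). PCDH9 and PCDH10 shrink and PCDH18 and PCDH1 grow from HEK293T cells to NPCs under both lengths, and the share of PCDH9 in HEK293T cells changes most with the length.

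Loss of ZNF274 in HEK293T cells was compared next. None of the 8 delta protocadherins was called, and none reached an unadjusted p below 0.05 in edgeR's quasi-likelihood test, where 0.489% of all genes tested were called and 7.12% reached that unadjusted p. DESeq2 and limma-voom also called 0 of 8. WT and KO ranges overlapped for all 8, where 12.4% of genes did not overlap.

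The intervals show how large a change could have gone unseen. PCDH7 stood at 89.1, 85.7 and 62.4 CPM in the KO libraries S18, S19 and S20, and its fold change of 1.14 had a 95% interval of 0.824 to 1.59. PCDH17 had a fold change of 1.12 (0.776 to 1.63) with KO values of 12.7, 9.69 and 11.1 CPM, and PCDH10 one of 1.15 (0.737 to 1.79) with KO values of 39.2, 31.2 and 32.4 CPM. For these 3 members, and for PCDH9 (0.887, interval 0.582 to 1.35) and PCDH18 (0.964, interval 0.593 to 1.57), a change of 2-fold or more lay outside the interval. For PCDH19 the interval, 0.777 to 2.05, just held a rise of 2-fold, and for PCDH1 it ran from 0.679 to 3.07.

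The wide interval of PCDH1 came with its spread between libraries. It stood at 3.65, 1.62 and 5.58 CPM in KO HEK293T cells, and in both genotypes the highest library was over 2 times the lowest, by 2.86 in WT and 3.45 in KO. Such a spread was found for 5.94% of genes with a mean of at least 1 CPM in WT and for 13.4% in KO libraries. PCDH9 spread by 2.50 in KO HEK293T cells, where S18 stood at 43.2 CPM and S19 and S20 at 108 and 90.3 CPM. PCDH8 had 4, 1 and 2 counts in the KO libraries, and its fold change of 1.29 had a 95% interval of 0.225 to 7.39.

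Beside them, 38 clustered protocadherins could be tested in HEK293T cells. Of these, 9 rose and 0 fell in KO cells, where 0.489% of all genes were called in either direction. Their median log2 fold change was 3.22, with 0.20 for the 8 delta members and 0.01 for all genes tested. The 38 were those of 56 clustered genes that passed the count filter, and some, such as PCDHB3 and PCDHB4, had 0 CPM in WT. Such genes passed through the KO libraries alone, so 3.22 describes the genes tested and not the family. Within 1 Mb of PCDH1, 13 genes other than clustered protocadherins were tested, and 0 were called in KO HEK293T cells by edgeR's quasi-likelihood test. At an unadjusted p below 0.05 stood 3 of them, or 23.1%, against 7.12% of all genes. These included TAF7, which lies between the beta and gamma clusters.

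**Figure D4:**
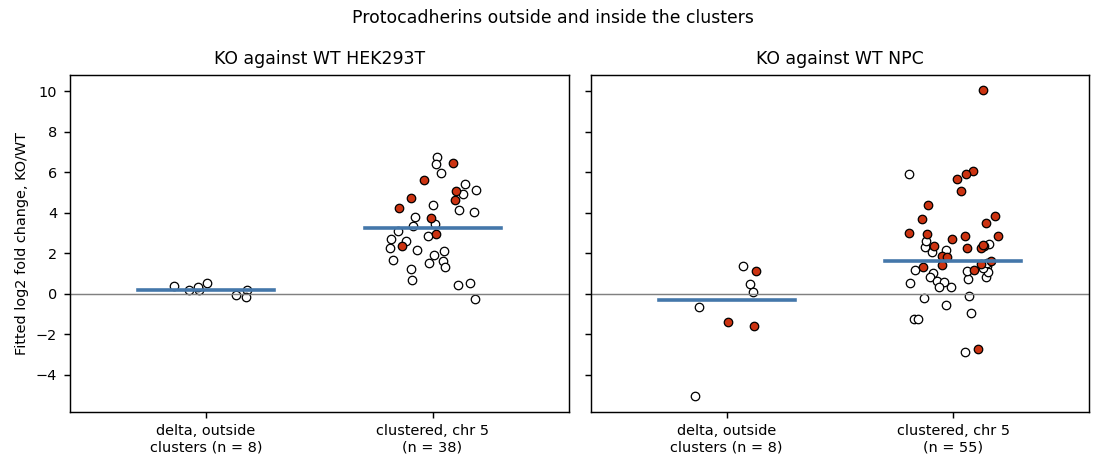
Fitted log2 fold change of KO against WT (vertical axis) for the 8 delta protocadherins and for the clustered protocadherins of chromosome 5 that were tested, in HEK293T cells and in NPCs. Each point is 1 gene, filled where called, and each line is the median of its set, which for the delta members is 0.20 and -0.29 and for the clustered genes 3.22 and 1.63. In HEK293T cells and in NPCs some clustered genes passed the count filter through the KO libraries alone. The medians of 3.22 and 1.63 therefore describe the genes tested and not the family.

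In NPCs, loss of ZNF274 went with changes of the delta protocadherins in both directions. PCDH9 rose, and PCDH1 and PCDH19 fell, each by more than 2-fold and with no overlap between WT and KO libraries. These 3 of 8 members were called where 16.8% of all genes tested were called, 8.45% higher and 8.36% lower. At an unadjusted p below 0.05 stood 7 of 8 members, where 40.3% of genes did, and WT and KO libraries did not overlap for 7 of 8 members, where 67.7% of genes did not. With 2 libraries a group, non-overlap was thus the usual case, and PCDH17 was the member that overlapped.

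PCDH1 stood at 7.42 and 4.13 CPM in the KO NPC libraries S1 and S2, below the 20.4 and 10.2 CPM of WT. It was 2.67-fold lower (log2 fold change -1.42, SE 0.410, adjusted p = 0.0401 in edgeR's quasi-likelihood test). KO NPCs still held more PCDH1 than the WT HEK293T mean of 2.50 CPM, though S2 lay just under the highest WT HEK293T library. The PCDH1 call is the least firm of the 3: it was lost with limma-voom (adjusted p = 0.0575), in a joint fit of all 10 libraries (adjusted p = 0.106) and without S3, S1 or S2, with log2 fold changes of -0.83, -1.91 and -1.06.

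PCDH9 stood at 26.6 and 20.5 CPM in KO NPCs, above the 8.56 and 13.0 CPM of WT, and was 2.16-fold higher (log2 fold change 1.11, SE 0.256, adjusted p = 0.0176 in edgeR's quasi-likelihood test). Its level in KO NPCs was under every HEK293T library, the lowest of which was at 43.2 CPM. Without S3 the log2 fold change was 0.84, under the threshold of 2-fold, and without S1 it was 0.90 with an adjusted p of 0.155.

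PCDH19 stood at 2.09 and 1.24 CPM in KO NPCs against 4.04 and 6.05 CPM in WT NPCs, a 3.06-fold decrease (log2 fold change -1.61, SE 0.405, adjusted p = 0.0244 in edgeR's quasi-likelihood test). The counts behind it were 42 and 27 in KO and 85 and 118 in WT libraries. Both KO NPC values lay in or below the range of the WT HEK293T libraries. Without S1 the adjusted p was 0.0604 and without S2 it was 0.155, while the call held with DESeq2 and limma-voom.

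PCDH10 and PCDH8 missed the adjusted threshold, although their fitted changes exceeded 2-fold. PCDH10 stood at 7.72 and 7.30 CPM in KO NPCs against 1.38 and 4.41 CPM in WT, with a log2 fold change of 1.36 (SE 0.499, adjusted p = 0.0838 in edgeR's quasi-likelihood test). The KO libraries lay close together above both WT libraries, which differed 3.20-fold between themselves, and PCDH10 was called with DESeq2 (adjusted p = 0.0465) and limma-voom (adjusted p = 0.0484). Its log2 fold change was 0.75 without S3 and 2.42 without S5, where it was also called. PCDH8 had 1 and 0 counts in KO NPCs against 2 and 37 in WT, and was called with DESeq2 and in the joint fit. Its log2 fold change of -5.06 was -7.38 without S1 and -1.77 without S5. From the summed counts the ratio of WT to KO was 40.3, with a counting interval of 6.82 to 1632 that leaves out the difference between libraries, and 37 of the 39 WT counts came from S5.

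The remaining members had smaller fitted changes. PCDH7 stood at 134 and 96.9 CPM in KO NPCs, above both WT libraries, with a log2 fold change of 0.46 (95% interval 0.02 to 0.90). PCDH18 stood at 31.4 and 24.9 CPM, the higher of them next to S5 at 31.6 CPM and both well below S3 at 57.1 CPM, with -0.67 (95% interval -1.32 to -0.02). Neither passed the adjusted threshold, and the PCDH18 value was -0.18 without S3 and -1.04 without S5, where it was called. PCDH17 stood at 12.5 and 11.9 CPM in KO NPCs, between the WT libraries, with a log2 fold change of 0.09 that was -0.49 without S3 and 1.06 without S5, the last of these past the threshold. Library differences of over 2-fold between S3 and S5 were found for PCDH1, PCDH10 and PCDH17, at ratios of 2.01, 3.20 and 2.95, and for 6.80% of genes at a mean of at least 1 CPM. Between S1 and S2 no member at that level differed by over 2-fold, where 2.38% of genes did.

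Markers of other cell types moved with genotype in NPCs, and their part in these results was not tested. The counts that follow stand against 8.36% of all genes that fell and 8.45% that rose. Of 11 neural progenitor markers 9 fell and 0 rose in KO NPCs, FEZF2, SOX1, FABP7 and LHX2 by the most. FEZF2 went from 50.5 ± 9.10 to 0.0498 ± 0.0704 CPM and LHX2 from 24.3 ± 6.91 to 0.268 ± 0.184 CPM (SD, n = 2 each). HES5, already at 0.245 ± 0.0568 CPM in WT and not called, was the marker at 0 in both KO libraries. Of 10 neuron markers 4 fell (DCX, GAP43, MAP2 and ELAVL3) and 1 rose, their summed level going from 1267 to 1283 CPM in WT to 172.6 to 232.8 CPM in KO. Most of that sum was MAP2, at 1044 ± 66.4 CPM in WT and 149 ± 25.4 CPM in KO (SD, n = 2 each). Of 12 mesenchyme markers 6 rose and 0 fell, with POSTN, COL3A1, SNAI2 and TWIST1 at the largest fold changes, and the 11 in both tables summed to 1351 to 2256 CPM in WT and 5511 to 6334 CPM in KO. Of 8 neural crest markers SOX10 and NGFR rose, and the 7 in both tables summed to 15.1 to 20.01 CPM in WT and 19.7 to 63.6 CPM in KO. Of 4 pluripotency markers ZFP42 rose and LIN28A fell. In these bulk libraries, fewer cells that carry a transcript and less of it per cell cannot be told apart.

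In the same NPC comparison 55 clustered protocadherins were tested, of which 26 rose and 1 fell, where 8.45% of all genes rose and 8.36% fell. Their median log2 fold change was 1.63. Some, such as PCDHA1 with a mean of 0 CPM in WT, passed the count filter through the KO libraries alone. The value of 1.63 thus describes the genes tested and not the family. The 8 delta members had a median of -0.29, and all genes tested one of -0.02. Of the other nonclustered protocadherins, PCDH11X, PCDH12 and PCDH15 were tested in NPCs and 0 were called in edgeR's quasi-likelihood test, none of them at an unadjusted p below 0.05, with means of at most 0.626 CPM in either genotype. In HEK293T cells the same genes had too few counts to be tested.

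Whether the KO effect itself differed between NPCs and HEK293T cells was tested as an interaction over the genes in both tables. PCDH19 was the only member called, by adjusted p below 0.05 alone, where 15.1% of genes tested were called. Its effect was 1.93 lower in NPCs on the log2 scale, a difference of -1.93 (SE 0.530, adjusted p = 0.0285 in edgeR's quasi-likelihood test), with a fitted log2 fold change of 0.33 in HEK293T cells and -1.61 in NPCs. The KO values were 2.91, 1.74 and 2.94 CPM in HEK293T cells, overlapping WT. It lost the call without any of S15, S16, S17, S20, S5 or S2, at adjusted p-values of 0.0512 to 0.136.

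For PCDH1 the difference was as large, -1.93, but its SE was 0.780 and its adjusted p 0.118 in edgeR's quasi-likelihood test. PCDH9 had a difference of 1.30 (SE 0.456, adjusted p = 0.0743), and PCDH10 one of 1.19 (SE 0.605, adjusted p = 0.216). In this fit the fall of PCDH1 and the rise of PCDH9 in KO NPCs were not shown to differ from HEK293T cells. PCDH9 gained the interaction call with DESeq2 (adjusted p = 0.0280) and without S18 or S19, and PCDH1 gained it without S15 or S19. PCDH8 had the largest fitted difference, -5.45, with an SE of 2.21 and an adjusted p of 0.120 in edgeR's quasi-likelihood test, and was called without S3 (adjusted p = 0.0424), but ran from -8.04 without S1 to -2.16 without S5. The PCDH10 difference was 0.57 without S3 and 2.23 without S5, where it was called (adjusted p = 0.0409). PCDH17, PCDH7 and PCDH18 had differences of -0.06, 0.28 and -0.60, with intervals of -1.22 to 1.10, -0.45 to 1.02 and -1.62 to 0.42.

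Set side by side, PCDH1 and PCDH19 were higher in WT NPCs than in WT HEK293T cells, by 2.61 and 1.33 on the log2 scale, and fell by 1.42 and 1.61 in KO NPCs. PCDH9 was lower in WT NPCs by -3.07 and rose by 1.11 in KO NPCs, and PCDH10, lower by -3.38, had 1.36 there. Both comparisons use the same WT NPC libraries, so a high or low value in S3 or S5 enters both with opposite sign, and no relation between them was tested.

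Partners through which delta protocadherins act were read from a list of 18 genes, of which 17 were in both tables. In KO HEK293T cells 0 of 17 were called by edgeR's quasi-likelihood test, and 0 were at an unadjusted p below 0.05. In KO NPCs 2 of 17, or 11.8%, fell and 0 rose, where 8.36% of all genes fell and 8.45% rose. At an unadjusted p below 0.05 stood 11 of 17, or 64.7%, 8 lower and 3 higher, against 40.3% of all genes. WASF1, the WAVE subunit of neurons, went from 78.0 ± 3.89 to 33.8 ± 0.452 CPM (SD, n = 2 each; log2 fold change -1.22, SE 0.119), and DAB1, the partner of PCDH18, from 20.6 ± 7.73 to 1.37 ± 0.248 CPM (log2 fold change -3.92, SE 0.355). Among partners called between the WT cell types, an adjusted p below 0.05 but a change under 2-fold was found in KO NPCs for CDH2, the N-cadherin that pairs with PCDH19 and PCDH8, at 764 ± 102 and 440 ± 17.5 CPM (log2 fold change -0.81), for the WAVE complex genes ABI2 at -0.95 and WASF3 at -0.85, and, in the other direction, for TAOK2 at 0.50.

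DAB1, CDH2, ABI2 and WASF3 led the 5 of 17 partners, or 29.4%, higher in WT NPCs than in WT HEK293T cells, against 25.2% of all genes. TAOK2, the kinase that binds PCDH8, was the 1 partner called lower, at 89.0 ± 7.59 CPM in HEK293T cells (SD, n = 3) and 42.0 ± 4.50 in NPCs (n = 2). By the interaction test 4 partners were called. The KO effect was lower in NPCs for WASF1 (-1.42), WASF3 (-0.97) and DAB1 (-4.77) and higher for TAOK2 (0.63). The other 13 of 17 partners were not called by it, where 15.1% of all genes tested were called.

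Genes within 1 Mb of the members were read in the same way. Clustered protocadherins and genes held in only 1 table were left out. In KO HEK293T cells 0 of 43 tested neighbours were called by edgeR's quasi-likelihood test, and 6 of 43, or 14.0%, were at an unadjusted p below 0.05, against 7.12% of all genes. In KO NPCs 6 of 54, or 11.1%, rose and 2, or 3.70%, fell, against 8.45% and 8.36% of all genes. Near PCDH1, which itself fell, FGF1, TAF7 and ENSG00000272070 rose, and TAF7, a single gene between the beta and gamma clusters at 532304 bp from PCDH1, went from 111 ± 16.8 to 226 ± 7.57 CPM (SD, n = 2 each). Near PCDH19, TNMD, a tendon and connective tissue gene, and SYTL4 rose, and TMEM35A was 1 of 2 that fell. Near PCDH8, THSD1 rose. No tested neighbour of PCDH7, PCDH9, PCDH10 or PCDH18 was called in NPCs, where there were 1, 1, 2 and 2 of them, and PCDH17 had none to test.

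The genes whose levels were most like each member at 1 CPM or more in a group, which leaves out PCDH8 at its mean of 0.997 CPM in WT NPCs, over the 10 libraries were found by Pearson's r of log2(CPM + 1) among 12465 protein-coding genes. These values describe 10 libraries of 2 cell types, and the gap between the cell types enters each. PCDH9 was most like NSUN2 (r = 0.993) and PCDH10 most like MED13 (r = 0.992), both members being high in HEK293T cells. PCDH18 was most like FAT4, an atypical cadherin (r = 0.992), followed by DLG1 and CEP41 (both r = 0.991). For PCDH19 the closest genes were ANKRD10 (r = 0.932), CCKBR (r = 0.931) and CELSR2, another atypical cadherin (r = 0.929), and for PCDH1 they were LRRIQ1, KCTD11 and SFR1 (r = 0.939 to 0.947). PCDH7 and PCDH17, neither of which was called between the WT cell types, had no gene above 0.888 and 0.770. Between members, r was 0.887 for PCDH9 with PCDH10 and -0.914 for PCDH10 with PCDH18.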

How the data were processed

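Total RNA was made into stranded poly(A) libraries. The authors mapped reads to hg19 with HISAT2, counted them with featureCounts and deposited raw counts per gene, 1 table per cell type; versions and the strand setting of the counting are not given in the sources used here. The members and all gene lists were chosen with earlier results of these data known. All 8 members were named, and members of other lists, the embryonic kidney list not being reported in full here, where called in at least 1 comparison at 1 CPM or more, up to 4 per list and direction. PAX8, NES, HES5 and the other nonclustered protocadherins were named outside this rule, after their values were seen. Identifiers were paired with GENCODE v44lift37, which gave a symbol for 22030 of 22750 and 20366 of 20965 genes. Genes with fewer total counts than libraries were left out. edgeR 4.0.16 (R 4.3.3) was fitted per table, and jointly over both tables for the cell type and interaction tests, with TMM scaling and Benjamini-Hochberg adjustment; all members passed the filter. limma-voom (limma 3.58.1), the study's test, DESeq2 1.42.0, other scalings and filters, a joint fit and leaving out each library were alternatives. Replicates differed beyond sampling noise (chi-square per degree of freedom 10.5 to 82.8). The scripts were tested on simulated data. Intervals from counts cover counting error only.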

Additional observations from a re-analysis of the deposited data

Results flagged for a closer look

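PCDH19 was marked because the effect of the ZNF274 KO differed between the cell types by a test of the difference itself. The interaction was -1.93 on the log2 scale (SE 0.530, adjusted p = 0.0285 in edgeR's quasi-likelihood test), from 0.33 in HEK293T cells and -1.61 in NPCs, and over 16 alternatives the adjusted p ran from 0.00715 to 0.136. No KO library of either cell type exceeded 2.94 CPM, so the level behind it is low.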

How the results depend on the processing

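In KO HEK293T cells the number of delta protocadherins called was 0 under every alternative run. In KO NPCs the number called was 3, with DESeq2 it was 5 (PCDH8 and PCDH10 added), with limma-voom 3 (PCDH10 in place of PCDH1) and in the joint fit 3 (PCDH8 in place of PCDH1), and leaving out 1 library gave 0 (without S1) to 6 (without S5), with 2 without S3 and 1 without S2. In such fits the lone library of an arm is assumed to vary like the other groups. For the interaction the number was 1, 2 with DESeq2 (PCDH9 added), and 0 to 3 with 1 library left out (0 without S16, S17, S20 or S2, and 3, with PCDH1 and PCDH9 added, without S19). Between WT cell types it was 6, and 4 to 6 with 1 library left out.

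Reversed directions were seen only for values that were not called. With library size alone as scaling, the median log2 fold change over genes was -0.13 in NPCs (-0.02 with TMM) and 0.098 in HEK293T cells (0.011 with TMM). Under it PCDH17 had -0.028 in KO NPCs and PCDH18 had 0.026 in KO HEK293T cells. A change of scaling moves all genes of a comparison alike, and that shift enters both values. With limma-voom the PCDH17 interaction was 0.13. With 1 library left out, values in HEK293T cells ran from -0.38 to 1.29 for PCDH8, -0.43 to 0.13 for PCDH9, -0.10 to 0.57 for PCDH10, -0.020 to 0.40 for PCDH17 and -0.27 to 0.17 for PCDH18. Those of PCDH17 ran from -0.49 to 1.06 in NPCs, -0.64 to 0.90 for the interaction and -0.79 to 0.77 between WT cell types. The cause of these changes was not tested. No paired analysis was run because no label ties a WT library to a KO library. Depth limits PCDH8 most, at 0 to 37 counts a library, and PCDH19, at 27 to 118.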
